A study of Mus musculus with 4 samples.

Results

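The genes of oxidative phosphorylation were examined in the liver of female and male mice that were microsomic (M), meaning small at birth, or of normal size (C, controls). They were taken as the non-control probes of the array whose gene name begins with Nduf, Uqcr, Atp5, or Cox followed by a number from 4 to 8 and a letter, together with Sdha, Sdhb, Sdhc and Sdhd. The rule uses names alone and so leaves out subunits with other names. It found 90 of the 36161 gene names on the array, of which 42 belong to complex I, 4 to complex II, 8 to complex III, 19 to complex IV and 17 to complex V. In 9 cases the name fits although the product is not a subunit or is only related to one: the assembly factors Ndufaf1, Ndufaf2, Ndufaf3 and Ndufaf4, and Ndufa4l2, Cox4nb, Cox7a2l, Atp5s and Atp5sl. Ndufa4 is placed with complex I by its name, although its product has since been described as a subunit of complex IV. Of the 90 names, 85 had a probe without an outlier flag and 82 were well above background on all 4 arrays, against 19303 of 35577 genes of the whole array. The exceptions were Atp5b, Atp5j, Cox4i2, Ndufa4 and Ndufa6, whose spots all carried a flag on at least 1 array, and the dim Cox7b2, Cox8b and Cox8c. No member was saturated on any array.

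Oxidative phosphorylation takes place in the inner mitochondrial membrane. Complex I (NADH dehydrogenase) and complex II (succinate dehydrogenase) pass electrons to ubiquinone, complex III (the cytochrome bc1 complex) passes them on to cytochrome c, and complex IV (cytochrome c oxidase, COX) passes them to oxygen. Complex V (ATP synthase) makes ATP from the proton gradient that complexes I, III and IV build up. Most subunits are encoded in the nucleus and a few in the mitochondrial genome, complex II being wholly nuclear, and several COX subunits exist in a form of liver and most tissues and a form of heart and muscle.

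Each of the 4 groups was represented by a single 1-colour array, named here by body size and then by gender: MF and CF for the females, MM and CM for the males. The labels describe every sample as whole liver of C57BL/6J mice at embryonic day 20, whereas the study's methods describe newborn C57BL/6 N mice, with M animals under the 10th percentile of weight for their gender at birth and C animals taken from the same litters. No transgene, mutation or treatment separated the groups, and the number of animals behind an array was not stated. The study's methods describe replicate experiments for each group, and which of them the array of a group stands for, or whether it pools them, was not stated either. The M arrays lay in one column of the slide and the C arrays in another, with females in one row and males in the other, so that the position on the slide and the group cannot be told apart. All values below are log2 of the processed signal relative to the 75th percentile of the same array, for the brightest probe of the gene. Levels of different probes cannot be set against each other, and only the same probe was compared between arrays. With 1 array per group a difference between a pair of arrays has no replicate error and no p-value. The spots of 29 bright probes that the array repeats gave a standard deviation of such a difference of 0.37 for MF vs CF and 0.30 for MM vs CM, which covers the error between spots only.

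All 19 hepatocyte markers found on the arrays were well above background on each of them. In MM vs CM 16 of the 19 were below 0, with a median of -0.57 and 9 over 1.5-fold lower. In MF vs CF 9 were below 0, with a median of 0.15. Most of these markers were in the brightest of 20 equal classes of mean level. There the median of all genes was -0.17 in MM vs CM and 0.59 in MF vs CF. The part of the hepatocyte markers in the differences of the members was not tested. Past 1.5-fold, 19.9% of all genes were higher and 21.1% lower in MF vs CF. In MM vs CM 17.7% were higher and 23.1% lower, beside which the counts here are to be read. Genes known as markers of other organs and cells also differed between the arrays. Of 20 heart genes, 18 of the 19 compared were lower on MF than CF by over 1.5-fold, and the log2 of their summed signal was 8.03 for CF against 1.64 for MF, 1.86 for MM and 2.98 for CM. On MF 8 of the 20 were not well above background, on CF 1. In MM vs CM 11 of the 18 heart genes compared were over 1.5-fold lower and 3 higher, with a median of -1.24. On MM 4 of the 20 were not well above background, on CM 5. Of 14 intestinal genes compared, 12 were higher on MF than CF by over 1.5-fold, as were 13 of 16 genes of granulocytes and macrophages. Among the intestinal genes Alpi, Cdh17, Cdx2 and Slc5a1 were not well above background on MM, CF and CM. In such bulk RNA, a change in the share of a cell type and a change of RNA level within cells cannot be told apart.

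Short stretches of the probes, with the place of the whole probe on mm9 (NCBI37), show which transcripts were read for the members on which the results turn. Each line gives bases 16 to 45 of a 60-base probe in the orientation of the array annotation. The COX isoforms are shown because related genes could share signal, and the longest run of bases shared by the probes of a pair was 4 for Cox6a1 and Cox6a2, 6 for Cox7a1 and Cox7a2 and 6 for Cox8a and Cox8b. The other lines show genes with the largest differences, among them pairs of probes of the same gene.
Cox6a1 (chr5:115795726-115795785): tttggatgctaagctcgtgtctcctttcct
Cox6a2 (chr7:135349160-135349219): ggccttctgcacaccggctctgagagcccc
Cox7a2 (chr9:79603215-79603274): tttattgatgtgtattaactgctgccaata
Cox7a1 (chr7:30970337-30970948): gactgaccatgacgctgactctggggggca
Cox8a (chr19:7289652-7289708): gtggggtccccctttgtaacaataaagtct
Cox8b (chr7:148084852-148084911): cgcagcatgaagttgcacatccctgagaga
Ndufa4l2 (chr10:126954149-126954208): aacagaagcagccgtgggcaaaatacaatt
Ndufaf4, brighter probe (chr4:24829194-24829253): agttgagggccataacgtttgaaagctctt
Ndufaf4, other probe (chr4:24830284-24830343): attccacgggaaaagatgtggaagatgaga
Atp5g2 (chr15:102493359-102493418): ctcgtctgccctgtatgttccttttcctgt
Atp5l, brighter probe (chr9:44721352-44721411): tgtaacgggactgctatctgaataaaacac
Atp5l, opposing probe (chr9:44721374-44721433): atttgaatgttattggaccatgtgtaacag

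To ask whether oxidative phosphorylation genes as a group stood apart in M animals, each gender was compared separately. In males the nuclear subunits were mostly higher in M: the median difference of MM vs CM over the 82 genes was 0.25, with 59 genes above 0 and 23 below, whereas the median of all 19303 genes was -0.03. In females no common direction was seen. The median of MF vs CF was 0.01, with 42 genes above 0 and 40 below, against -0.09 for all genes. By complex, the medians of MM vs CM were 0.24 for complex I, 0.25 for complex II, 0.42 for complex III, 0.17 for complex IV and 0.32 for complex V. The corresponding medians of MF vs CF were -0.03, 0.57, 0.22, -0.11 and 0.38. Without the 9 members that are not subunits, the complex IV median of MM vs CM turned to -0.02, and that of all members stayed at 0.25.

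**Figure D1:**
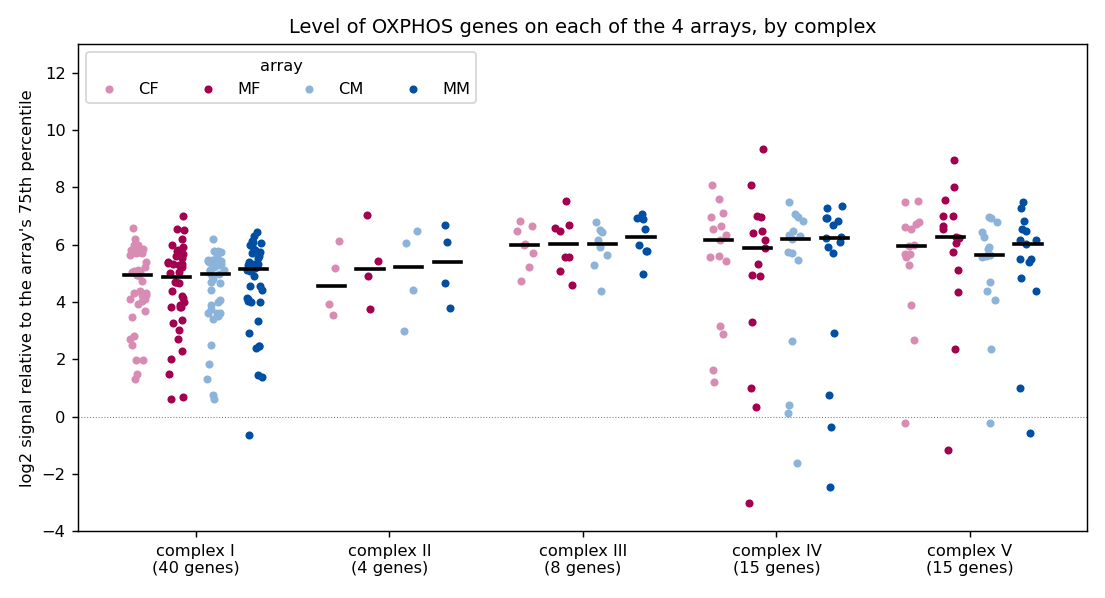
Log2 signal relative to the 75th percentile of the array (y axis) of the 82 members well above background on all 4 arrays, by complex (x axis); each point is the brightest probe of a gene on 1 array and each bar the median of the complex on that array. The medians of complex I lie at 4.94 on CF, 4.87 on MF, 4.99 on CM and 5.14 on MM, close together beside the range of the genes.

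The probes of the members are among the brightest of the array, and the differences of bright genes as a whole were not centred on 0. Of the 82 members, 68 lay in the 3 brightest of 20 equal classes of mean level. The median difference of MF vs CF over all 2896 genes of these 3 classes was 0.36, against 0.09 for the 68 members there. For MM vs CM the order was turned, with -0.02 for all genes of these classes and 0.27 for the members. Set against the median of its own class, 63 of 82 members were below in MF vs CF, with a median of -0.27, and 61 of 82 were above in MM vs CM, with a median of 0.28. Complex IV lay farthest below its classes in females, at -0.60 with 13 of 15 genes below, and complex III farthest above in males, at 0.49 with 7 of 8 genes above. The direction in females therefore depended on the scaling: the median of the members minus that of all genes ran from -0.41 with normexp and quantile normalization to 0.15 with a position trend removed. In males the same quantity was positive under each of 10 settings, from 0.24 to 0.31. Median centring and the absence of scaling shift all genes of an array alike and so could not change it. All of these settings used the same pair of arrays.

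**Figure D2:**
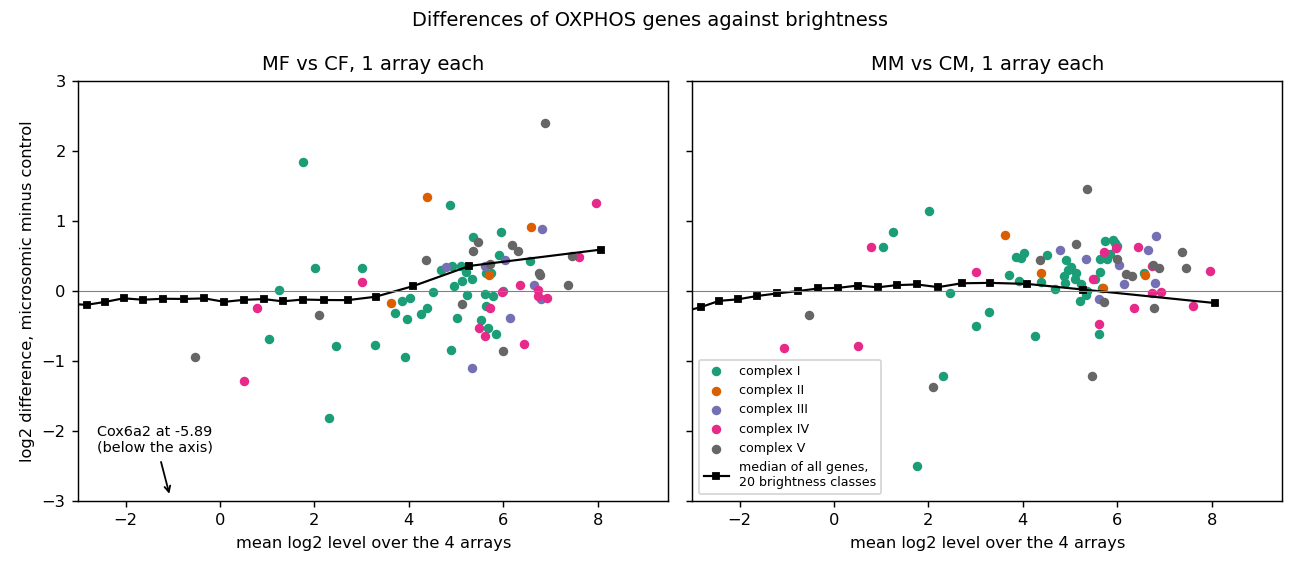
Log2 difference of M minus C (y axis) against the mean log2 level over the 4 arrays (x axis) in females (left) and males (right); coloured points are the 82 members by complex, and squares joined by a line are the medians of all genes in 20 brightness classes. In females the line climbs to 0.59 in the brightest class and most members lie below it, while in males the line ends at -0.17 and most members lie above it.

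Counted by size, 11 of 83 members compared were higher on MF than CF by over 1.5-fold (13.3%, against 19.9% of all genes) and 15 were over 1.5-fold lower (18.1%, against 21.1%). In males 14 of 84 members were higher on MM than on CM (16.7%, against 17.7% of all genes) and 9 were lower, where all genes gave 23.1%. The shares of members that were higher or lower were thus below the shares of all genes, by the widest margin for genes lower in MM. Against genes of similar brightness this did not hold throughout. In the 3 brightest classes, 14.7% of 68 members were higher in MF and 10.3% lower, against 38.1% and 9.4% of the other genes there. In MM 14.7% of these members were higher and 4.4% lower, against 11.9% and 12.9%. There the shares higher in MM and lower in MF were not below those of other genes but near them, resting on 10 and 7 of the 68 members. The splits of all members compared depended on the scaling. Quantile normalization gave 4 higher and 36 lower in females, removal of the brightness trend 5 and 23, and the unscaled values 33 and 5. In males the split became 32 and 5 when arrays were centred on the median, and 59 and 5 without scaling. The median of all genes in MM vs CM was itself 0.21 and 0.53 under these 2. In MF vs CF the median of all genes was 0.32 without scaling and -0.115 with quantile normalization. The shares of all genes past 1.5-fold were not counted under the alternative scalings, so these splits describe no difference between members and other genes.

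A direction shared by both genders was rare past the threshold. Of 83 members compared in both, Ndufa2 and Uqcrq were over 1.5-fold higher in M in each gender, which is 2 members beside 3.19% of all genes. The female differences were lost under some alternatives: Ndufa2 was 0.48 with the brightness trend removed, 0.16 with quantile normalization and 0.11 with normexp and quantile normalization, and Uqcrq 0.30, 0.07 and -0.23. Ndufaf4, Cox6a2 and Cox7a1 were lower in each gender, 3 members beside 3.8% of all genes. Opposite directions past the threshold were found for 4 members, Ndufa4l2, Atp5d, Cox7a2 and Ndufab1, beside 9.85% of all genes. By sign alone, 31 of the 82 were higher in both genders (37.8%, against 21.1% of all genes) and 12 were lower in both (14.6%, against 28.4%). A further 28 were lower in MF but higher in MM (34.1%, against 27.2%), and 11 were higher in MF but lower in MM (13.4%, against 23.4%). These shares were not counted for genes of similar brightness. Set against the median of their own brightness class, 63 of the 82 were below in MF vs CF and 61 above in MM vs CM.

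**Figure D3:**
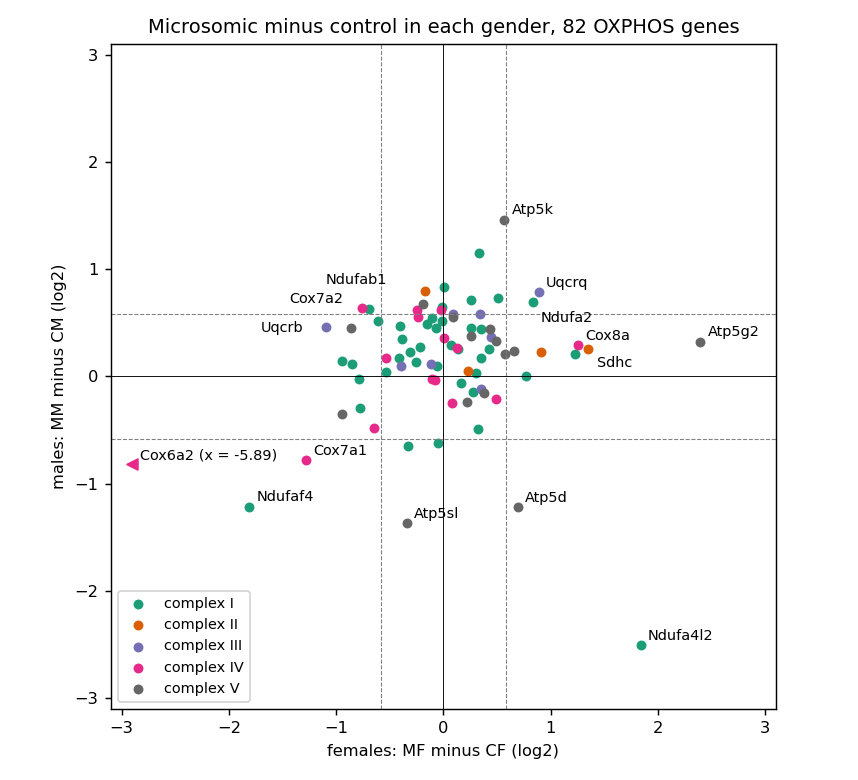
Log2 difference of MF minus CF (x axis) against MM minus CM (y axis) for the 82 members, coloured by complex, with dashed lines at 1.5-fold. Most points lie inside the dashed square; Ndufaf4 and Cox7a1 lie in the lower left corner, Uqcrq and Ndufa2 in the upper right, Ndufa4l2 in the lower right, and Cox6a2 is drawn at the left edge because its female difference is -5.89.

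The 4 arrays together allow a single test, limma with M or C and gender as terms and 1 residual degree of freedom. No member passed a Benjamini-Hochberg adjusted p of 0.05 for M vs C, nor did any other gene (0% of 19303), and the smallest adjusted p among members was 0.995. At an unadjusted p under 0.05 there were 4 members, Ndufaf4, Cox6a2, Cox7a1 and Atp5g2, of 82 tested, beside 4.42% of all genes. For gender, 0 members and 0% of all genes passed the adjusted threshold, with a smallest adjusted p of 0.42 among members by limma. Unadjusted, 5 members passed, Cox8a, Ndufaf4, Atp5g2, Atp5k and Ndufa4l2, beside 9.36% of all genes. Apart from the comparison of M with C, the median of the members was 0.16 lower on CM than on CF and 0.01 higher on MM than on MF.

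In complex I, 30 of 40 genes were above 0 in MM vs CM and 18 of 40 in MF vs CF. Ndufb11 and Ndufa13, both accessory subunits, were the brightest by the naming rule. Ndufa13 stood at 6.21 on MF, 6.21 on CF, 6.09 on MM and 5.44 on CM, so that CM was the low array, with a difference of 0.65 in males and -0.01 in females. The female one was -0.68 with quantile normalization and -0.55 with normexp and quantile normalization. The brightest probe of Ndufb11 was 0.43 higher in MF and 0.25 higher in MM, whereas a dim probe farther along the gene was 0.97 lower in MF. Ndufa2, another accessory subunit, was 6.53 on MF and 5.70 on CF, and 6.14 on MM and 5.45 on CM, giving differences of 0.84 and 0.69. Both M values of Ndufa2 lay above both C values. The core subunits of the flavin and iron-sulphur arm were mixed: Ndufv1, which binds NADH, was 0.51 higher in MF and 0.73 higher in MM, while Ndufs1, an iron-sulphur subunit, was -0.33 and -0.65. Ndufab1, the mitochondrial acyl carrier protein, was 0.63 on MF and 1.32 on CF but 1.401 on MM and 0.77 on CM. Its differences of -0.69 and 0.63 ran opposite ways.

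Ndufaf4, an assembly factor of complex I, was past 1.5-fold lower in M in both genders by both of its probes. The brighter probe was 0.70 on MF, 2.51 on CF, 2.41 on MM and 3.62 on CM, so it was 3.51-fold lower in MF and 2.32-fold lower in MM. The other probe gave differences of -1.67 and -0.88. M and C overlapped across genders, since MM was within 0.11 of CF, and by limma over the 4 arrays the difference was -1.51 ± 0.43 (standard error, n = 4 arrays; unadjusted p = 0.00843, adjusted p = 0.995). The other assembly factors differed from it: Ndufaf1 was 0.33 and 1.15 higher in MF and MM, Ndufaf3 was 0.01 and 0.84 higher, and Ndufaf2 was -0.78 and -0.02. Ndufa4l2, a paralogue of Ndufa4 known as a target of hypoxia signalling, had the widest range within the Nduf genes. It was 3.83 on MF, 1.99 on CF, 1.85 on CM and -0.65 on MM. The C arrays nearly coincided, MF was 3.58-fold above CF and MM was 5.68-fold below CM.

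Complex II has 4 subunits, all on the arrays. Sdha, the flavoprotein, was 3.77 on MF and 3.94 on CF, and 3.78 on MM and 2.99 on CM. CM alone stood apart. Sdhb, the iron-sulphur subunit, was 7.05 on MF, 6.14 on CF, 6.70 on MM and 6.47 on CM, 0.91 higher in MF by its brightest probe but 0.53 lower by its other probe. Sdhc, a membrane anchor, was 4.90 on MF and 3.55 on CF, and 4.67 on MM and 4.41 on CM, the difference of 1.35 in females being 0.28 by its other probe. Sdhd, the other anchor, was 5.43 on MF, 5.20 on CF, 6.10 on MM and 6.05 on CM, within 0.23 in each gender. The high female median of this complex thus rested on single probes of Sdhb and Sdhc.

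In complex III, Uqcrq and Uqcr11 were higher in M by both of their probes in each gender. Uqcrq, a small accessory subunit, was 7.53 on MF and 6.64 on CF, and 6.95 on MM and 6.16 on CM. Its brightest probe gave 0.89 and 0.79, and its other probe 0.73 and 0.46, with both M arrays above both C arrays by either probe. The probes of Uqcr11 were higher by 0.44 and 0.91 in MF and by 0.37 and 0.75 in MM. Set against the median of its own brightness class, the brightest probe of Uqcr11 was -0.15 in MF vs CF and 0.54 in MM vs CM. Uqcrb behaved differently: all 3 probes were lower in MF, by -1.10, -0.79 and -0.55, and all 3 higher in MM, by 0.46, 0.25 and 0.34. Uqcrh, the hinge protein, was 6.70 on MF, 6.82 on CF, 6.90 on MM and 6.78 on CM, by its brightest probe, and its other probe was 1.41 higher on MM than CM. Under the same 3 alternatives as for Ndufa2, MF vs CF of Uqcrh was -0.71, -0.83 and -1.08.

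In complex IV the forms of heart and muscle set the largest differences of all members. Cox6a2 was 2.87 on CF but -1.62 on CM, -2.45 on MM and -3.02 on MF. CF was 59.4-fold above MF and 22.6-fold above CM. Cox8b was 2.47 on CF and -5.19 on MF, a difference of 203-fold, while it was -4.38 on MM and, not well above background, -4.37 on CM. Cox7a1 was 1.63 on CF, 0.35 on MF, 0.42 on CM and -0.37 on MM, the smallest spread of these isoforms. All 3 were highest on the array with the high heart genes: Myl2, the ventricular myosin light chain, was 5.76 on CF against -4.63 on MF, -3.75 on MM and -1.13 on CM, and Actc1, cardiac actin, was 5.59 on CF against -3.44, -2.55 and -0.56. Of 15 skeletal muscle genes, 7 were well above background on each of the 4 arrays, and Mylpf, Myog, Myh1 and Myh4 on none. Of 11 compared in females 3 were over 1.5-fold lower on MF, beside 21.1% of all genes, among them Ckm and Myh8. Ckm, the muscle creatine kinase that heart also uses, was 2.10 on CF and -3.13 or lower on the others. Myh8 was 19.8-fold lower on MF. Of 10 brown fat genes, which include the member Cox8b, 7 were compared in each gender. In females 3 were over 1.5-fold lower on MF, Cox8b among them, and 0 higher, beside 21.1% and 19.9% of all genes. In males 3 were lower on MM and 1 higher, beside 23.1% and 17.7%. Ucp1, Elovl3 and Plin1 were not well above background on any array. Cidea was 0.63 on CF and 1.53 on CM against -1.30 on MF, and not well above background on MM. The part of heart RNA in these differences was not tested. Without Cox6a2, Cox7a1 and Cox8b, 12 members instead of 15 were over 1.5-fold lower in MF and 7 instead of 9 in MM.

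**Figure D4:**
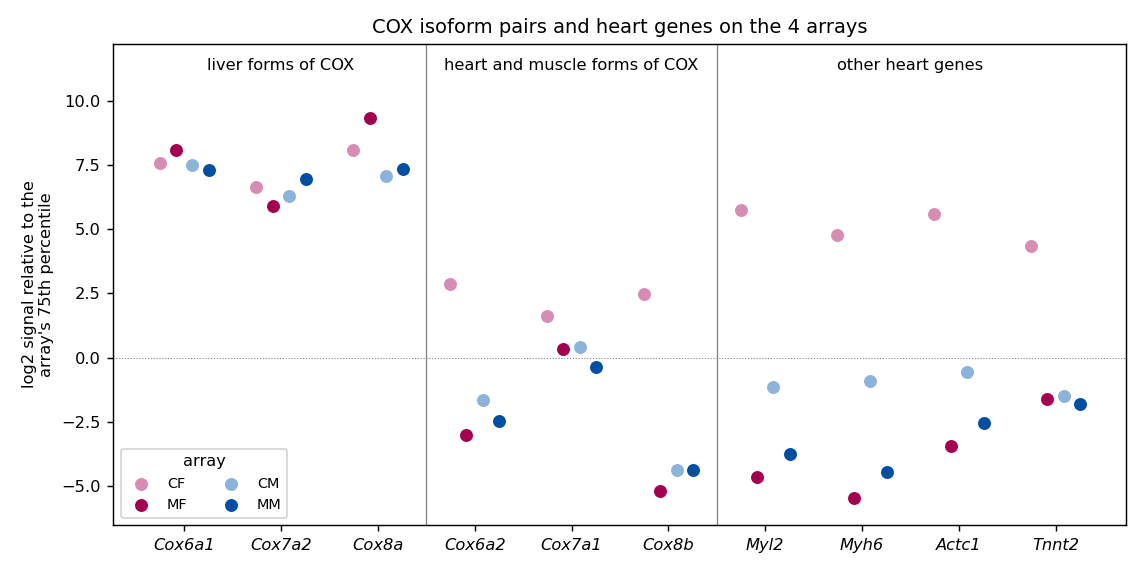
Log2 signal relative to the 75th percentile of the array (y axis) on each of the 4 arrays for the liver forms of 3 COX subunits, their heart and muscle forms, and 4 other heart genes (x axis); each point is 1 array. The heart and muscle forms and the other heart genes are highest on CF, whereas the liver forms are not.

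The liver forms showed no excess on CF. Cox6a1 was 8.07 on MF, 7.58 on CF, 7.28 on MM and 7.49 on CM. Cox7a2 was 5.89 on MF and 6.65 on CF but 6.94 on MM and 6.31 on CM, so that it was -0.76 in females and 0.63 in males; the male difference turned to -0.27 with normexp and quantile normalization. Cox8a was 9.34 on MF, 8.08 on CF, 7.36 on MM and 7.07 on CM. Its difference of 1.26 in females was 0.10 by a second probe, and in males the probes gave 0.29 and 0.68. The ubiquitous Cox4i1 stood at 6.99 on MF, 7.10 on CF, 6.81 on MM and 6.83 on CM, and Cox7b was within 0.07 in each gender. These small differences depended on the scaling: with the brightness trend removed, quantile normalization, and normexp and quantile normalization, MF vs CF was -0.70, -0.85 and -1.15 for Cox4i1 and -0.67, -0.79 and -0.98 for Cox7b, and MM vs CM was 0.92 for Cox4i1 with the last of these. Cox6b1 was lower in both, by -0.65 in MF and -0.48 in MM. Cox6b2, known as the testis form, was read well above background on all arrays at 3.30 on MF, 3.17 on CF, 2.92 on MM and 2.65 on CM. Of the other testis-associated forms, Cox8c was not well above background on any array, and Cox7b2 was well above it on CM alone, at least 9.34-fold above MM. Cox7a2l, described as a factor that joins complexes into supercomplexes, was -0.02 in females and 0.62 in males. Whether its product does so in these mice was not measured.

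Complex V was higher in M in 11 of 15 genes in females and 10 of 15 in males. Against genes of the same brightness, 6 of 15 were above in females, with a median of -0.10, and 10 of 15 in males, and the female median turned to -0.33 with quantile normalization and -0.35 with normexp and quantile normalization. The c-ring subunit of the membrane sector is encoded by Atp5g1, Atp5g2 and Atp5g3, whose products are identical once imported. Atp5g2 was 8.96 on MF, against 6.56 on CF, 6.16 on MM and 5.83 on CM. MF alone stood apart, 5.26-fold above CF, and the adjoining probe gave 2.46-fold with 7.75 on MF. The other c-ring genes differed less: Atp5g1 was 0.49 and 0.33 higher in MF and MM, and Atp5g3 was 0.09 and 0.55 higher. The probes of these 3 genes shared runs of at most 6 bases. Atp5d, a subunit of the central stalk, was 6.27 on MF and 5.57 on CF but 4.38 on MM and 5.61 on CM. MM was the low array, and the differences of 0.70 and -1.22 ran opposite ways, although the female one turned to -0.23 with normexp and quantile normalization. Atp5a1, a catalytic-sector subunit, was 0.26 higher in MF and 0.38 higher in MM.

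Some genes of complex V could not be given a direction from these probes. Atp5k, a small membrane subunit, was 6.23 on MF, 5.66 on CF, 5.52 on MM and 4.06 on CM by its brightest probe, annotated to chromosome 5, and the difference of 1.46 in males was the largest of any member toward MM. A further unflagged probe of the same name, annotated to chromosome Y, gave -0.61. Atp5l had 4 probes without a flag within a stretch of chromosome 9. The brightest was -0.86 in females and 0.45 in males, and a probe overlapping it by most of its length gave 0.98 and -0.69. Among the 24 members with several probes, the probes disagreed in sign for 10 in MF vs CF and for 6 in MM vs CM, and passed 1.5-fold in both directions for Atp5l and Ndufb11 in females and for Atp5k and Atp5l in males. The median spread between probes of a gene was 0.55 and 0.41. Atp5sl, placed with complex V by its name although it is not a subunit, was 0.99 on MM against 2.36 on CM, a difference of -1.37, and -0.34 in females.

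The subunits encoded in the mitochondrial genome did not follow the nuclear ones in males. Of 11 such genes on the array, 10 were lower on MM than on CM, with a median of -0.38. Over 1.5-fold lower were 4 of them, COX1, ND1, ND2 and ND4, beside 23.1% of all genes and 12.7% of those in the 3 brightest classes. COX1, the catalytic subunit of complex IV, was 8.24 on MM and 9.88 on CM, beside 9.36 on MF and 9.42 on CF. In females the median was 0.01, and 4 genes, COX2, ND2, ND4 and ND5, were over 1.5-fold higher on MF, beside 19.9% of all genes and 37.6% of those in the 3 brightest classes. In the brightest class, where all of these probes except that of ND6 lie, the median of all genes was 0.59 in MF vs CF and -0.17 in MM vs CM. Of the 11 probes, 4 (those of ATP8, COX2, ND3 and ND4L) are annotated to chromosome 1, where the nuclear genome holds a copy of mitochondrial sequence, and 7 to the mitochondrial genome.

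**Figure D5:**
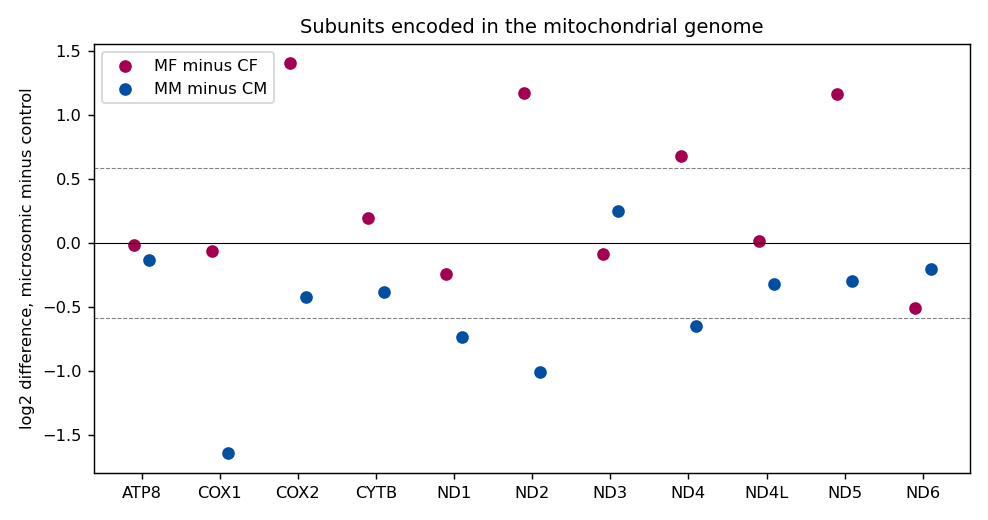
Log2 difference of M minus C (y axis) for the 11 genes of the mitochondrial genome on the array (x axis), in females and males, with dashed lines at 1.5-fold. In males 10 of 11 points lie below 0, ND3 being the exception at 0.25; in females the points lie on either side.

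Genes that work with the complexes were taken from lists of their own. Past 1.5-fold, 19.9% of all genes were higher and 21.1% lower in MF vs CF, and 17.7% were higher and 23.1% lower in MM vs CM, beside which the counts here are to be read. Of 28 assembly factors and associated genes compared, 20 were above 0 in MM vs CM, with a median of 0.33 over the 27 well above background on all arrays, and 7 were over 1.5-fold higher. In MF vs CF 21 of 28 were below 0, with a median of -0.37, and 10 were over 1.5-fold lower. Lrpprc, which stabilises mitochondrial mRNA, was -1.10 in females and 0.46 in males, and Cycs, cytochrome c itself, was -0.80 and 0.28. Of 19 genes of mitochondrial biogenesis, 6 were over 1.5-fold higher and 2 lower in MM, and 2 were higher and 6 lower in MF. The 2 lower in MM were Esrra, at -0.42 in females and -1.17 in males, and Ppargc1a, at 0.02 and -0.80. Tfam, which packages mitochondrial DNA and drives its transcription, was -0.17 in females and 0.66 in males. Tfb2m, its partner in transcription, was -1.43 and 0.43. Nrf1, a regulator of respiratory genes, was 3.14 on MF, 1.60 on CF, 1.51 on MM and 1.44 on CM. The citric acid cycle feeds electrons to complexes I and II. Its list held 13 genes, among them Pdha1, Pdhb and Dlat of pyruvate dehydrogenase, which is not part of the cycle itself. Of the 13, 6 were over 1.5-fold lower in MF, Pdhb and Dlat among them, and 1 was higher, with a median of -0.38. In MM 1 was higher and 0 were lower, with a median of 0.00.

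Promoters of the members were searched for motifs of factors known to act on respiratory genes, in the 250 bases before each RefSeq gene start on GRCm38.p6 and on both strands. Of the 90 names 74 had a promoter. The core of the NRF1 motif, GCGCNTGCG, stood in 17 of 74 members (23%), against 5.4% of 27025 promoters and 10.1% of 9661 genes well above background on all arrays. For the ETS motif CCGGAAG the shares were 16.2%, 7.05% and 12.5%, for the ERR motif TNAAGGTCA 2.7%, 1.14% and 0.787%, and for the YY1 motif AAGATGGCG 0%, 0.607% and 1%. Matches of different motifs were counted even where they overlap. The first NRF1 match of each member described above is shown because this motif had the largest share among members of the motifs searched, with the match in capitals, on the strand of the gene.
Atp5g2 (chr15:102671070-102671099, minus strand): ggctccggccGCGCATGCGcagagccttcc
Atp5k (chr5:108434430-108434459, minus strand): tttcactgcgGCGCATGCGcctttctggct
Atp5l (chr9:44920963-44920992, minus strand): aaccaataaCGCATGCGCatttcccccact
Atp5sl (chr7:25619308-25619337, plus strand): ccgtctcctcCGCACGCGCgcctttaaaag
Cox6a1 (chr5:115349101-115349130, minus strand): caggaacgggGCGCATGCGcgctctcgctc
Ndufaf4 (chr4:24897960-24897989, plus strand): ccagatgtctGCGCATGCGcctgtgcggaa
Sdha (chr13:74350318-74350347, minus strand): gtttacagggCGCAGGCGCaccaccactca
Sdhd (chr9:50603908-50603937, minus strand): cgctggggtgCGCACGCGCggtggcagcgc
Genes with a match did not share a direction, since Atp5g2 was 2.40 higher and Ndufaf4 -1.81 in females, and a match says only that these letters stand in the window.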

How the data were processed

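Cy3-labelled liver RNA was hybridised to Agilent mouse whole-genome arrays, 1 for each of 4 groups. The scans were quantified by the authors with Agilent Feature Extraction (10.7.3.1 per the file headers), who deposited the processed signal, an intensity on a linear scale after background subtraction and detrending, without normalization between arrays. Log2 of this intensity minus the 75th percentile of each array was computed, 1754 spots that the software marked as outliers on at least 1 array were removed, spots of a probe were averaged, and the brightest probe stood for the gene. Against a probe not well above background, a fold is a lower bound, set by the lowest signal well above background. limma 3.58.1 (R 4.3.3) was fitted to 19303 genes; it and the differences were tested on simulated data. The number of arrays limits the precision. The members and gene lists were chosen with earlier results of these data known. Named genes were, per complex, the 2 brightest members, all Sdh genes, isoform families, the 3 largest differences either way in each gender, members past 1.5-fold in both genders, and those whose probes disagreed; Uqcrb, Uqcr11, Ndufv1, Ndufs1, Cox6b1, Atp5a1, Ndufaf2, and genes of the other lists that are named, were chosen after their values were seen. Alternatives were other scalings (median centring, quantile, normexp with offset 50, none), mean over probes, flagged spots kept, trends of brightness, GC and position removed, subunits only, other filters and a 2-fold threshold, and for limma an intensity trend, no second term and unadjusted thresholds. Motifs were searched in promoters from RefSeq (GRCm38.p6). One probe sequence is not reported here.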

Additional observations from a re-analysis of the deposited data

Results flagged for a closer look

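For 4 members the M array differed from the C array past 1.5-fold one way in females and the opposite way in males. The female difference minus the male difference, on the log2 scale, was 4.35 for Ndufa4l2, 1.92 for Atp5d, -1.39 for Cox7a2 and -1.32 for Ndufab1. These differences between the genders were not tested, since each group has 1 array.

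For 5 members all spots carried an outlier flag on some array and entered no comparison. Read with the flagged spots, Atp5b, the catalytic subunit of ATP synthase, was 2.04 higher on MF than on CF, with the flag on CF, and Cox4i2, the lung form of COX subunit 4, was 2.09 higher on MF, with the flag on MF. On MM, Ndufa4 (flagged on MF) was 0.79 and Atp5j (flagged on CM) 0.65 higher than on CM.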

How the results depend on the processing

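No replicate could be left out and no paired analysis was possible because each group has 1 array. Of 29 values of named genes past 1.5-fold, 16 stayed past it the same way under every alternative, among them those of Ndufaf4 in both genders and Ndufa4l2 in both. Of their 306 alternative values 3 reversed, all with normexp and quantile normalization: Uqcrq -0.23 and Atp5d -0.23 in MF vs CF, and Cox7a2 -0.27 in MM vs CM. Some of the 306 could not differ from the main value. Leaving out other members does not change the value of a gene, and the mean over probes does not change a gene with 1 probe.

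For MF vs CF, the members' median and the higher and lower counts were -0.41, 4 and 36 with quantile normalization, -0.52, 7 and 37 with normexp and quantile normalization, 0.41, 33 and 5 without scaling, and -0.27, 5 and 23 with the brightness trend removed. At 2-fold, 5 were higher and 5 lower. For MM vs CM, the median and counts were 0.49, 32 and 5 when centred on the median and 0.81, 59 and 5 without scaling. There 31 were higher with normexp and quantile normalization, and at 2-fold 2 were higher and 5 lower. The median of CM vs CF was -0.57 centred on the median, -0.43 with normexp and quantile normalization and -0.27 without scaling, and that of MM vs MF was -0.26, 0.52 and, with quantile normalization, 0.50. Median centring and the absence of scaling shift all genes alike, and the median of all genes in MM vs CM was then 0.21 and 0.53. In MF vs CF it was 0.01 and 0.32. The medians of complexes II, III and V in MF vs CF reversed with quantile normalization (-0.065, -0.44 and -0.33) and with normexp and quantile normalization (-0.14, -0.56 and -0.35). With the brightness trend removed those of III and V were -0.33 and -0.10. Complex IV reversed to 0.29 in MF vs CF without scaling and to -0.021 in MM vs CM with subunits only. The cause of these changes was not tested. By limma, 4 members passed an unadjusted p of 0.05 for M vs C and 5 for gender, and 1 passed 0.01 with 1.5-fold for M vs C. The removal of Cox6a2, Cox7a1 and Cox8b was chosen after seeing the data.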
